A study of Mus musculus with 18 samples.

Results

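Macrophage and monocyte genes were followed in the nascent RNA of sorted mouse fetal liver cells. The set holds 10 genes, picked out by their symbols: Emr1 (current symbol Adgre1), Csf1r, Cd68, C1qa, C1qb, C1qc, Lyz2, Mpeg1, Vcam1 and Cd163, of 54232 gene identifiers in the count table. All 10 were found, each as 1 identifier. Cells came from fetal livers of C57BL/6 embryos at e12.5 to e13.5, were depleted of Ter119-positive cells with beads, sorted, rested for 6 h and labelled with 500 µM 4-thiouridine (4sU) for 45 min, so that the purified RNA was largely transcribed within that time. Lin+ cells were positive for at least 1 of 5 lineage antibodies (CD41, CD45R, CD3e, CD11b and Ly-6G/6C), and are therefore a mixture of haematopoietic lineages. The 5 lineage-negative (Lin-) populations were S0-Low (CD71- Ter119-), S0-Medium (CD71 medium), S1 (CD71 high, Ter119-), S2 (CD71 high, Ter119 medium) and S3 (CD71 high, Ter119 high). Their order follows erythroid maturation. The paper describes S0-Low as a mix of blood stem and progenitor cells with early erythroid progenitors. S0-Low is therefore not purely erythroid. Each population had 3 libraries, 18 in all, and the labels name no engineered allele. The labels call the Lin+ cells erythroblasts too, although they were sorted by lineage antibodies.

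Macrophages of the fetal liver sit at the centre of erythroblastic islands, where they hold developing erythroblasts by adhesion molecules and take up the nuclei that red cells expel. Monocytes and macrophages depend on signalling through the receptor Csf1r, carry the adhesion receptor F4/80 (the product of Emr1), and are rich in lysosomal and pore-forming proteins such as Cd68, lysozyme and perforin-2. Tissue macrophages are also the main source of C1q, the recognition unit of the classical complement pathway, whose A, B and C chains are made by separate genes. The comparison of Lin+ with each Lin- population asks where RNA of these genes was being made in the sorted liver.

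Library totals ran from 9452476 counts in S0-Low replicate 3 to 40567976, and a count of 0, which allows up to 3 counts, corresponds to at most 0.0739 to 0.317 CPM (a count divided by its library's total, times 1e6), for counting error only. Every other CPM value given here was divided by the library total after scaling (TMM), unless it is said to be over the plain library total. Between libraries of a population, counts differed by more than sampling noise in every pair. Replicate 3 stood apart in S1, where the chi-square per degree of freedom was 79.3 for replicates 1 and 2 and 308 to 338 for the pairs with replicate 3, and in S2, where it was 122 against 407 to 475. Nothing in the labels says that the replicates are separate animals, so p-values measure the spread between these libraries. The label of the Lin+ cells was set against lineage markers. S100a9, a calprotectin subunit of neutrophils, had 12559 to 24534 counts in Lin+ and 2 to 13 in S0-Low. All 10 neutrophil granule markers tested were higher in Lin+ than in S0-Medium, S1, S2 and S3, 6 of them also than in S0-Low, and their summed level was 3460 to 6130 CPM in Lin+ and 340 to 798 CPM in S0-Low. Mast cell and basophil genes led by Hdc, Cpa3 and Ms4a2 summed to 258 to 537 CPM in Lin+, and megakaryocyte genes led by Itga2b, Vwf and Pf4 to 418 to 1220 CPM. The 7 erythroid markers were lower in Lin+ than in S1, S2 and S3, and summed to 109 to 129 CPM there. Itgam, which encodes the sort antigen CD11b, was listed at 0 in all 18 libraries, as were Irf8, Tpsb2, Rag1 and Ttr of the 155 list genes, so a row of 0 is given here as a listed value and not as absence of the RNA.

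Nascent RNA of the macrophage and monocyte genes was highest in Lin+. For 9 of the 10 members, all but Cd163, every Lin+ library lay above all 15 Lin- libraries, which held for 9.69% of the 17755 genes tested. In single comparisons the same 9 of 10 members did not overlap, beside 15.7% of genes tested for S0-Low, 20.6% for S0-Medium, 26.9% for S1, 28.2% for S2 and 36.8% for S3. C1qa, C1qc and Cd163 did not pass the filter on low counts. The 9 thus include C1qa and C1qc from outside the 17755 genes, and are not like for like with these shares. For C1qa and C1qc the lowest Lin+ library also lay under the 3-count floor of S0-Low replicate 3. Their separation is therefore one of listed counts only. Of the 7 tested by edgeR's quasi-likelihood test (adjusted p under 0.05 over all genes), 1 was called higher in Lin+ than in S0-Low (background 0.496% of genes), 5 than in S0-Medium (2.64%), 6 than in S1 (10.9%), 6 than in S2 (16.3%) and 7 than in S3 (28.2%). C1qb and Vcam1 passed the filter through their Lin+ libraries alone. The calls and the non-overlap counts therefore describe the members and are no test of the set. Without C1qb and Vcam1 the calls were 1, 3, 4, 4 and 5 of 5. The 5 comparisons share the same 3 Lin+ libraries. In bulk samples such as these, fewer cells of a type and less labelled RNA per cell cannot be told apart.

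**Figure D1:**
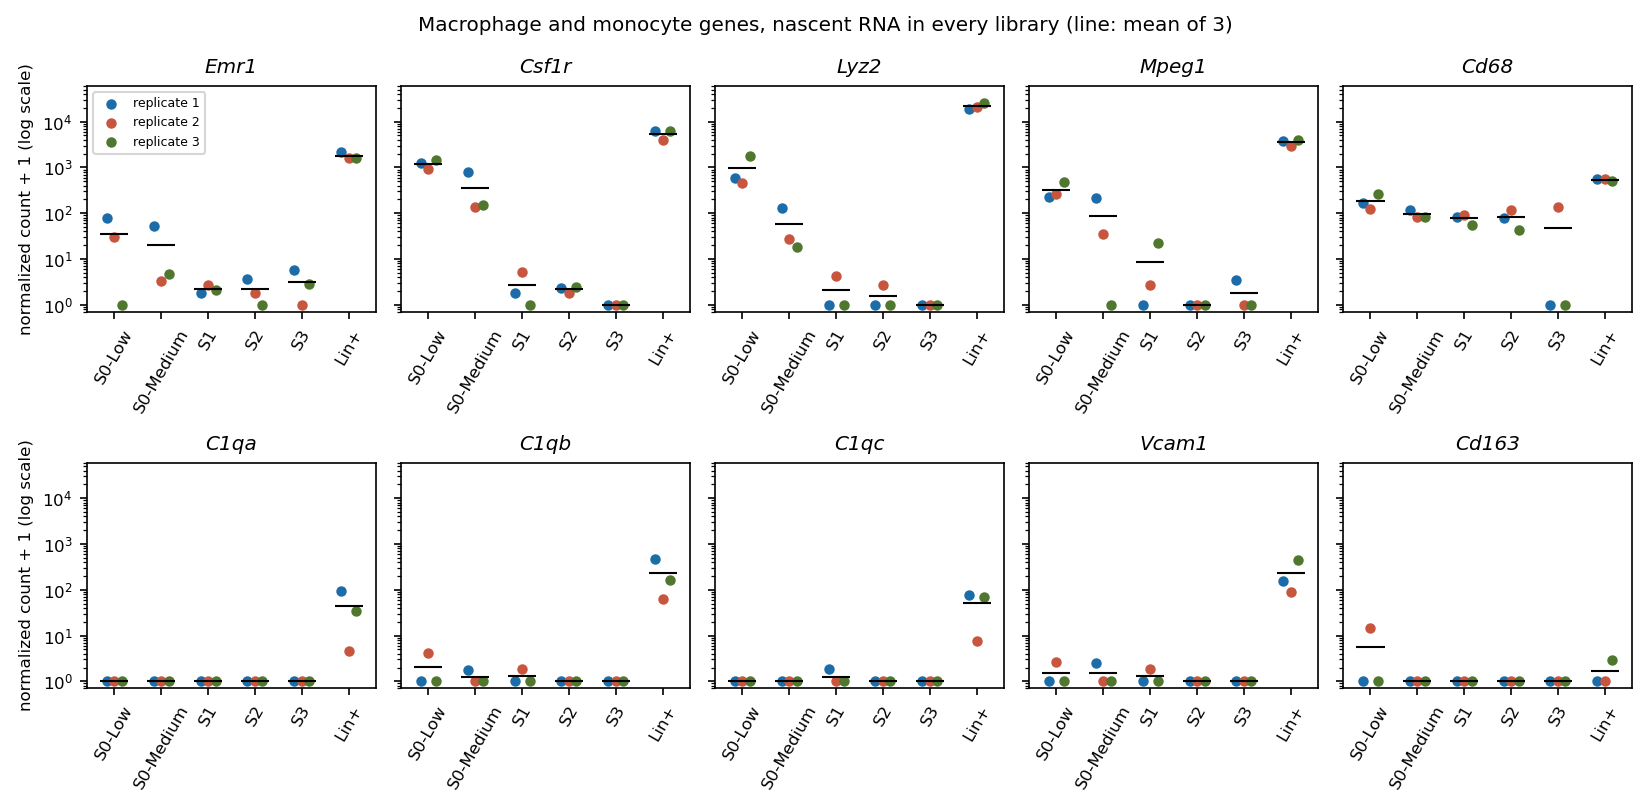
Normalized count plus 1 (log scale) of each of the 10 members in every library, by population, with replicates in colour and the mean of 3 libraries as a line. All members but Cd163 are highest in the 3 Lin+ libraries; Csf1r, Lyz2, Mpeg1 and Cd68 are also measured in every S0-Low library, while C1qa, C1qb, C1qc and Vcam1 lie at or near 0 outside Lin+.

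The receptors come first. Emr1 encodes F4/80, the surface protein by which mouse macrophages are usually recognised. It had 2035, 2177 and 2394 counts in the Lin+ libraries, followed by 92, 36 and 0 for S0-Low, 68, 3 and 4 for S0-Medium, and 0 to 2 over the 9 libraries of S1, S2 and S3. Lin+ thus stood apart from every other library, the lowest Lin+ value being 20.9 times the highest of the rest. The normalized count (scaled to the mean effective library) was 1793 ± 345 in Lin+ against 34.9 ± 38.4 in S0-Low (SD, n = 3), a log2 fold change of 5.64 ± 1.38 (SE; edgeR adjusted p = 0.0694). With the replicate number as a block, which pairs the libraries of these 2 populations, the difference was called (6.39 ± 1.20, edgeR adjusted p = 0.0106). Against S0-Medium it was called (6.56 ± 1.44, edgeR adjusted p = 0.0153), but with S0-Medium replicate 2 left out the adjusted p was 0.0847, with replicate 3 left out 0.079 and with Lin+ replicate 1 left out 0.0557. Where the other population had 3 counts or fewer in each library, Emr1 was at least 660-fold higher in Lin+ than in S1, 488-fold than in S2 and 314-fold than in S3, taking 3 counts per library as the floor. Annotated transcripts of other genes (Gm18069 and Gm20243) overlap the 124949 bases of Emr1 on chromosome 17. Other annotated genes also overlap Csf1r (Mir6983 and Gm52352) and Cd163 (Gm52877).

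Csf1r, the receptor for the macrophage growth factors Csf1 and Il34, was also counted in every library of S0-Low and S0-Medium. Lin+ libraries held 5707, 5451 and 9594 counts. S0-Low followed with 1492, 1142 and 545, and S0-Medium with 1074, 178 and 164. In S1 and S2 it had 0 to 5 counts a library, and S3 was listed at 0 in all 3. Each Lin+ value was at least 2.77 times the highest Lin- value, and the S0-Low and S0-Medium ranges of normalized counts (911 to 1447 and 133 to 796) did not overlap either. The mean in S0-Low, 1197 ± 270 (SD, n = 3), was 21.7% of the Lin+ mean of 5504 ± 1302. That difference (log2 2.20 ± 0.67) had an edgeR adjusted p of 0.175, whereas those against S0-Medium (3.93 ± 0.72, edgeR adjusted p = 0.00627) and S1 (11.52 ± 1.04, edgeR adjusted p = 7.17e-06) were called. Csf1r was at least 1500-fold higher in Lin+ than in S2 and at least 965-fold higher than in S3.

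Among the lysosomal and effector genes, Lyz2, the lysozyme gene of macrophages and neutrophils, carried the most RNA. It had 17960, 29067 and 38075 counts in Lin+, then 708, 558 and 685 in S0-Low and 176, 35 and 18 in S0-Medium. S1 libraries held 0 to 4 counts, S2 libraries 0 to 2 and S3 libraries none. The means fell from 21980 normalized counts in Lin+ to 950 ± 756 in S0-Low and 57.8 ± 63.0 in S0-Medium (SD, n = 3). Lyz2 was the 1 member called against S0-Low (log2 4.54 ± 0.81, edgeR adjusted p = 0.0130), and leaving out S0-Low replicate 1, S0-Low replicate 2 or Lin+ replicate 3 moved that adjusted p to 0.0825, 0.0908 and 0.0511. It was also called against S0-Medium (8.56 ± 0.97, edgeR adjusted p = 0.000173) and S1 (14.04 ± 1.25, edgeR adjusted p = 7.17e-06), and was at least 5980-fold higher than in S2 and 3850-fold than in S3. Of the 31-base stretches of Lyz2 transcripts, 32.9% also occur in its neighbour and near copy Lyz1, so counts of the pair can be exchanged by the authors' quantification. Lyz1 itself had at most 39 counts in Lin+ and 0 elsewhere.

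Mpeg1, which encodes the pore-forming perforin-2 of phagocytes, had 3585, 3929 and 5996 counts in Lin+ and 271, 336 and 181 in S0-Low. S0-Medium held 296, 45 and 0 counts, S1 0, 2 and 20, S2 none and S3 1, 0 and 0. Its S0-Low mean (324 ± 137 normalized counts, n = 3) was 9.07% of the Lin+ mean (3574 ± 598), with the 2 groups apart. Neither the difference from S0-Low (log2 3.47 ± 1.36, edgeR adjusted p = 0.360) nor that from S0-Medium (5.4 ± 1.49, edgeR adjusted p = 0.0545) was called, and that from S1 was (8.90 ± 1.76, edgeR adjusted p = 0.00299). Against S2 and S3, Mpeg1 was at least 973-fold and 627-fold higher.

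Cd68, a lysosomal membrane glycoprotein gene used as a general phagocyte marker, was the member that differed least between populations. It had 514, 762 and 764 counts in Lin+ libraries. The S0-Low libraries held 198, 152 and 98, those of S0-Medium 154, 111 and 87, those of S1 101, 110 and 50, those of S2 58, 139 and 29, and those of S3 0, 95 and 0. Every Lin+ library was still above the rest, the lowest at 1.95 times the highest Lin- library, but S1 and S2, with at most 5 counts of Csf1r and 4 of Lyz2 in a library, carried Cd68 RNA in every library. Mean normalized counts were 540 ± 29.1 for Lin+, 182 ± 71.2 for S0-Low, 92.9 ± 18.4 for S0-Medium, 75.8 ± 20.0 for S1, 79.8 ± 38.0 for S2 and 45.7 ± 79.1 for S3 (SD, n = 3). The log2 differences from S0-Low to S2 were 1.57 to 2.83 with edgeR adjusted p of 0.861, 0.357, 0.165 and 0.140 in that order. Only the difference from S3 was called (3.54 ± 1.36, edgeR adjusted p = 0.0439), where the median of all genes tested was 0.69. Leaving out S3 replicate 1 or 3, or any 1 Lin+ library, moved its adjusted p to between 0.0722 and 0.0796, a fit of the 6 libraries alone gave 0.150, and without S3 replicate 2, the 1 S3 library with counts, the fitted difference was 12.13.

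**Figure D2:**
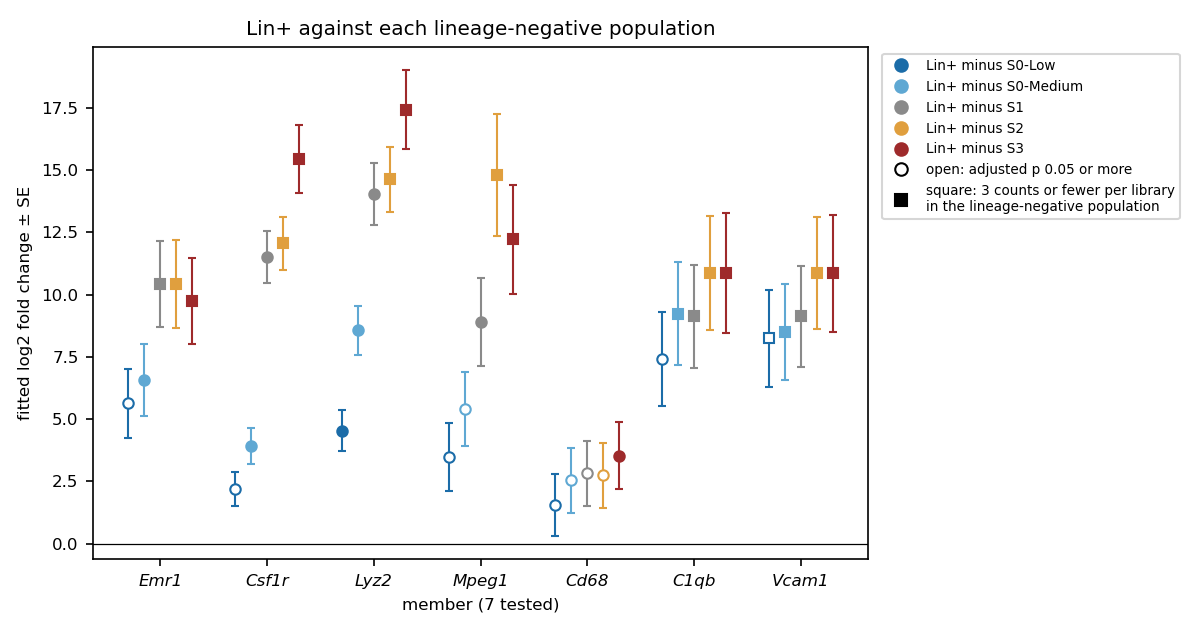
Fitted log2 fold change of Lin+ against each Lin- population, with its SE as a bar, for the 7 members tested; open symbols did not reach an adjusted p under 0.05, and squares mark a Lin- population with 3 counts or fewer per library, where the fitted value depends on the prior count and is no bound. Differences from S0-Low are the smallest of each member's 5, from 1.57 for Cd68 to 8.24 for Vcam1.

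The C1q genes were seen in Lin+ with almost no counts elsewhere. In the RefSeq annotation (GRCm38.p6) they lie side by side on chromosome 4 in the order C1qb, C1qc, C1qa, within 18719 bases, with gaps of 3600 and 2979 bases between them. The first bases upstream of C1qb and C1qc are shown because these neighbours were both at or near 0 counts in the Lin- libraries, and because they carry the same pair of short motifs. The sequences are from RefSeq, build GRCm38.p6, 5′ to 3′ on the minus strand that both genes use: chr4:136886201-136886450 for C1qb and chr4:136892937-136893164 for C1qc, the latter ending 22 bases before the start given in the promoter table, since those 22 bases lie in the annotated gene. Capitals mark GAGGAA, the core of sites for the myeloid factor PU.1, and TCATGTG, the M-box of MITF and TFE factors, which contains an E-box (CANNTG); both strands were searched, so TTCCTC and CACATGA are the same motifs reversed.
C1qb: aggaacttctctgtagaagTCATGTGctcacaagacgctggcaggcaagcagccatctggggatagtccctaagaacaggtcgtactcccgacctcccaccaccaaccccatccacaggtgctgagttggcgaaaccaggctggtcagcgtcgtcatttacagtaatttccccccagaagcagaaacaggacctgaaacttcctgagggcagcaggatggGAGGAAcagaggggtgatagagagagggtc
C1qc: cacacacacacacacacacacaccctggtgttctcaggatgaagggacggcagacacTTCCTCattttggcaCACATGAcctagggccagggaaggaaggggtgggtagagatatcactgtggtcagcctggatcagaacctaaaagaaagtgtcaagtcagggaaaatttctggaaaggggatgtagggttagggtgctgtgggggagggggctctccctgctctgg

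Counted from the start in the RefSeq promoter table, which for C1qc lies 22 bases inside the annotated gene, the M-box begins 231 bases upstream of C1qb and 178 bases upstream of C1qc. It occurs in the 250-base windows of 3.3% of 32851 RefSeq promoters. The PU.1 core lies 30 to 25 bases upstream of C1qb and 193 to 188 bases upstream of C1qc, and occurs in 23.3% of promoters. Promoter sequences were matched for 6 of the 10 members, and chromosome 18, which holds Csf1r, was left out of the matching. Among the other 4 of those matched, Cd68 held a PU.1 core 225 bases upstream, Mpeg1 held the GATA motif AGATAA at 2 places (10.0% of promoters have it), and Lyz2 and Cd163 held none of the 3 motifs. These letter matches describe the windows and say nothing of binding.

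C1qb, the chain with the most counts, had 434, 83 and 251 counts in Lin+. Outside Lin+ it had 4 counts in S0-Low replicate 2, 1 in S0-Medium replicate 1, 1 in S1 replicate 2 and none in the other 12 libraries. It was called against S0-Medium (edgeR adjusted p = 0.0242), S1 (edgeR adjusted p = 0.00881), S2 (edgeR adjusted p = 0.00386) and S3 (edgeR adjusted p = 0.00280) and not against S0-Low (log2 7.41 ± 1.89, edgeR adjusted p = 0.109). Over a floor of 3 counts per library, it was at least 95.5-fold higher in Lin+ than in S0-Medium, 85.3-fold than in S1, 63.0-fold than in S2 and 40.6-fold than in S3. Without Lin+ replicate 1 these limits fell to 46.9-fold, 41.9-fold, 30.9-fold and 19.9-fold. The S0-Medium call did not hold without any 1 of S0-Medium replicates 1, 2 or 3 or Lin+ replicates 1 or 3, and the S1 call had an adjusted p of 0.0513 without S1 replicate 1.

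C1qa had 85, 5 and 50 counts in Lin+ and was listed at 0 in all 15 Lin- libraries. C1qc had 72, 9 and 102 counts in Lin+ and 1 count in the rest, in S1 replicate 1. Lin+ replicate 2 was therefore the lowest of the 3 for all 3 chains. The floor puts C1qa at least 10-fold and C1qc at least 11.8-fold higher in Lin+ than in S0-Low, and at least 7.5-fold and 8.87-fold higher than in S3, without a test at the filter used. Without Lin+ replicate 1 the C1qa limits were 4.3-fold and 3.23-fold, and C1qa in Lin+ replicate 2 (3.67 normalized counts) lay under the S0-Low floor itself. Over the plain library total, Lin+ replicate 2 held 0.136 CPM of C1qa and 0.245 CPM of C1qc. Both lay under the 0.317 CPM floor of S0-Low replicate 3. The C1qc limit against S0-Low was 8.67-fold to 17-fold with 1 Lin+ library left out. When no filter was applied, edgeR called C1qa against S1, S2 and S3 (adjusted p = 0.0323, 0.0296 and 0.0268) and C1qc against S0-Medium, S2 and S3 (adjusted p = 0.0438, 0.0212 and 0.0193). DESeq2 called neither in any comparison with Lin+, with adjusted p of 0.256 to 0.65 for C1qa and 0.109 to 0.373 for C1qc. With 1 S3 library left out, which let both genes through the filter, the edgeR adjusted p against S3 was 0.0697 to 0.0785 for C1qa and 0.0411 to 0.0489 for C1qc. Without Lin+ replicate 2, the lowest Lin+ library of both genes, C1qa was called against S3 (edgeR adjusted p = 0.0383) and C1qc against S2 (edgeR adjusted p = 0.0298) and S3 (edgeR adjusted p = 0.0220). In each of these fits the counts of both genes came almost wholly from the Lin+ libraries, so the calls are no independent support.

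Vcam1 encodes the adhesion molecule through which island macrophages bind the integrin of erythroblasts, and is also made by endothelial and stromal cells. It had 146, 122 and 673 counts in Lin+, 2 counts in S0-Low replicate 2, 2 in S0-Medium replicate 1, 1 in S1 replicate 2 and 0 in the other 12 libraries. Every Lin+ library lay above every Lin- library, all of which were under the floor of 3 counts. It was at least 54-fold higher than in S0-Low and 40.5-fold than in S3, limits that fell to 28.8-fold and 21.6-fold without Lin+ replicate 3. Calls were made against S0-Medium (edgeR adjusted p = 0.0269), S1 (edgeR adjusted p = 0.00783), S2 (edgeR adjusted p = 0.00342) and S3 (edgeR adjusted p = 0.00246), and the S0-Low difference had an edgeR adjusted p of 0.0778. Leaving out S0-Medium replicate 2 or 3 or any 1 Lin+ library moved the S0-Medium adjusted p to between 0.0591 and 0.152. A list of 7 endothelial markers, of which Cdh5 and Lyve1 were at 0 in all S3 libraries and none was at 0 throughout Lin+ or S0-Low, summed to 178 to 307 CPM in Lin+, 82.4 to 268 CPM in S0-Low and 7.97 to 12.7 CPM in S3. A list of 7 mesenchymal and stellate markers summed to 11.5 to 49.8 CPM in Lin+, 30.5 to 39.8 CPM in S0-Low and 0 to 0.18 CPM in S3. The part of either list in the Vcam1 result was not tested.

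Cd163, the receptor by which macrophages take up haptoglobin and haemoglobin, was the exception. It had 3 counts in Lin+ replicate 3, 17 in S0-Low replicate 2 and 0 in the other 16 libraries. No direction can be read from 2 libraries, and Cd163 was not tested.

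The spread between the 3 Lin+ libraries differed among members. The highest library was 1.11 times the lowest for Cd68, 1.31 times for Lyz2, 1.38 times for Emr1 and Mpeg1 and 1.59 times for Csf1r in normalized counts. For Vcam1 the ratio was 4.98, for C1qb 7.66, for C1qc 11.7 and for C1qa 24.9. This split was drawn after the values were seen. Among the 8361 genes tested whose Lin+ mean fell in the range of the first group (540 to 21982 normalized counts) the median ratio was 1.45, and 63.0% were at or below 1.59. Among the 2783 genes tested whose Lin+ mean fell in the range of the second group (42.8 to 232 normalized counts) the median ratio was 2.47, and 18.7% reached 4.98 or more. C1qb had 467, 61.0 and 166 normalized counts in Lin+ replicates 1 to 3 and Vcam1 157, 89.6 and 446, so the C1q chains and Vcam1 shared their lowest library but not their highest.

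**Figure D3:**
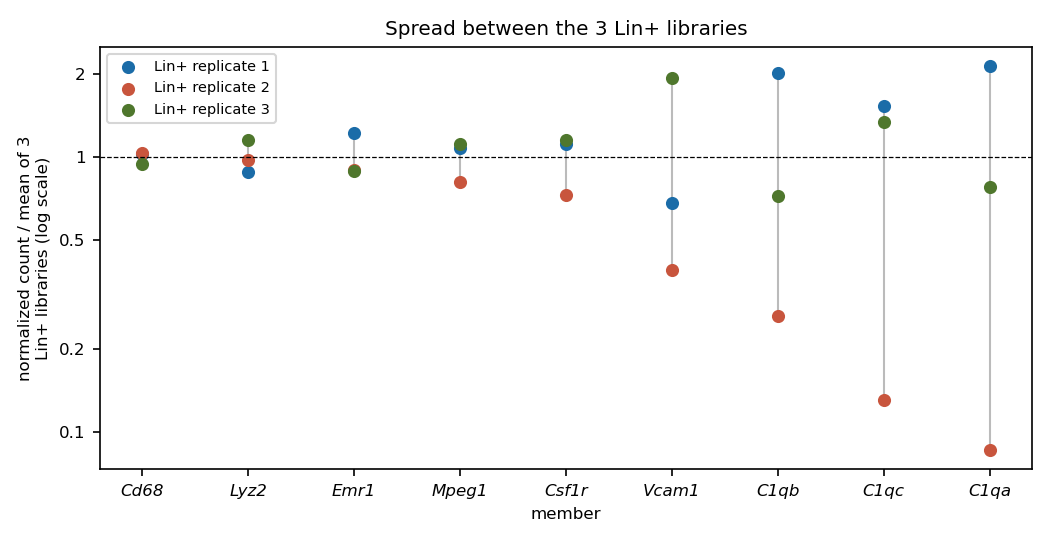
Normalized count in each Lin+ library divided by the mean of the 3 Lin+ libraries (log scale), for the 9 members with Lin+ counts in every library. Cd68, Lyz2, Emr1, Mpeg1 and Csf1r stay close to 1, while C1qa, C1qb, C1qc and Vcam1 spread by 4.98 to 24.9 times with replicate 2 lowest.

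Levels between genes were compared per length, as CPM per kilobase of the longest annotated transcript (GENCODE vM1), a scale that treats nascent RNA as spliced. In Lin+ the mean level was 523 ± 71.4 for Lyz2, 36.6 ± 8.66 for Csf1r, 25.8 ± 4.31 for Mpeg1, 17.3 ± 3.32 for Emr1 and 13.7 ± 0.740 for Cd68 (SD, n = 3). The library ranges of Csf1r and Mpeg1 overlapped, as did those of Mpeg1 and Emr1, whereas Lyz2 lay apart from all others and Cd68 (12.9 to 14.2) lay below Emr1 (15.3 to 21.1). On the same scale C1qb reached 6.65 ± 6.06, Vcam1 2.12 ± 1.74, C1qc 1.31 ± 0.998 and C1qa 1.29 ± 1.34, with ranges that overlapped from each to the next.

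In S0-Low, the most immature Lin- population, the members kept unequal shares of their Lin+ level. Relative to the Lin+ mean, S0-Low held 33.6% of Cd68, 21.7% of Csf1r, 9.07% of Mpeg1, 4.32% of Lyz2 and 1.95% of Emr1 in normalized counts, with 4 counts of C1qb, 2 of Vcam1 and none of C1qa and C1qc over its 3 libraries. The lower shares rested on single libraries: Lyz2 was at 2.34% without S0-Low replicate 3 and Emr1 at 0.8% without S0-Low replicate 1, an alternative chosen after the data were seen. Csf1r, Mpeg1, Lyz2 and Cd68 were counted in every S0-Low library, and Emr1 in 2 of 3. The neutrophil granule gene Mpo moved with these genes, from a mean of 15962 normalized counts in S0-Low to 2062 for S0-Medium and 24.6 for S1, and it carried most of the summed level of the 10 granule markers, which was 340 to 798 CPM in S0-Low, 11.5 to 175 CPM over the S0-Medium libraries and 0.968 to 1.80 CPM over those of S1. Of the other granule markers, Prtn3, Ctsg and Elane fell as well. Their means were 620, 454 and 68.1 normalized counts in S0-Low, 120, 64.1 and 12.6 in S0-Medium and 6.54, 0.278 and 0.278 in S1. Camp, S100a8, S100a9, Ngp, Mmp8 and Ltf had means of 0 to 22.8 normalized counts already in S0-Low. Also moving with the members were the transcripts of CD45 (Ptprc), with 2039 to 5077 counts in S0-Low against 221 to 2341 for S0-Medium and 23 to 36 for S1. Their part in the member values was not tested. The summed members ran in the same order, with 56.0 to 125 CPM for S0-Low, 8.01, 8.67 and 41 CPM for the S0-Medium libraries in rising order and 2.37 to 3.26 CPM for S1.

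The number of members called against S0-Low changed with the fit. It was 1 in the fit of all 18 libraries, in which 88 genes were called higher and 39 lower in Lin+. With the replicate block it was 2, Lyz2 and Emr1, of 342 genes called in all. DESeq2 called 4 (Emr1, C1qb, Lyz2 and Vcam1), and a fit of the 6 libraries alone, which does not take its spread from erythroblasts, called 6, all but Cd68. In every fit run, each of the 7 members it tested was higher in Lin+ than in S0-Low. These fits reuse the same libraries, which did not overlap for these members, so the direction was largely fixed beforehand.

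S0-Medium was less uniform than S0-Low. Replicate 1 had the highest counts of the 3 for Emr1, Csf1r, Lyz2 and Mpeg1, up to 1074 for Csf1r against 178 and 164. The same library had 2341 counts of Ptprc beside 510 and 221, and 6974 of the granule gene Mpo beside 992 and 297. Its CD71 transcript (Tfrc) was the lowest of the 3, with 16671 normalized counts beside 24607 and 21870. Without it 5 members were called higher in Lin+, as with it, but Mpeg1 (edgeR adjusted p = 0.0260) took the place of C1qb (edgeR adjusted p = 0.0568). Leaving out S0-Medium replicate 2, S0-Medium replicate 3 or Lin+ replicate 1 gave 2, and leaving out Lin+ replicate 3 gave 3.

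S3 and S0-Low are the ends of the sorted series, of which S0-Low also holds blood stem and progenitor cells by the paper. Between them 4 members were called and all 4 were lower in S3, beside 24.4% of genes tested called lower and 13.4% called higher. They were Csf1r (edgeR adjusted p = 4.04e-06), Lyz2 (edgeR adjusted p = 1.72e-05), Mpeg1 (edgeR adjusted p = 0.00344) and Emr1 (edgeR adjusted p = 0.0363). Against the floor, Csf1r was at least 210-fold, Lyz2 at least 167-fold, Mpeg1 at least 56.9-fold and Emr1 at least 6.12-fold lower in S3. The Lyz2 limit was 90.3-fold without S0-Low replicate 3, and that of Emr1 was 2.52-fold without S0-Low replicate 1 and 9.19-fold without replicate 3. For Csf1r, Lyz2 and Mpeg1 every S3 library lay below every S0-Low library, as did 24.4% of genes tested. Emr1 overlapped, since S0-Low replicate 3 had 0 counts, and its call did not hold without S0-Low replicate 1 or 2 or S3 replicate 2 or 3 (adjusted p = 0.0523 to 0.151). Cd68 fell short of the threshold (log2 -1.97 ± 1.28, edgeR adjusted p = 0.228). The median of all genes tested was -0.62 in this comparison. Markers of other cells were called lower in S3 as well: 4 of 10 neutrophil, 3 of 5 mast cell and basophil, 3 of 8 megakaryocyte and 3 of 7 B cell markers. So were 4 of 6 endothelial, 3 of 5 mesenchymal and 3 of 3 hepatocyte markers, but 0 of 4 T and NK cell markers. All 7 erythroid markers were higher.

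A further 70 genes of macrophage biology, in 7 lists, were counted in the same fit, and 62 were tested. Of these, 3 were higher and 1 was lower in Lin+ than in S0-Low, 21 and 3 than in S0-Medium, 39 and 5 than in S1, 46 and 5 than in S2, and 44 and 9 than in S3. Over all genes tested the shares called higher were 0.496%, 2.64%, 10.9%, 16.3% and 28.2% in the same order, and the shares called lower 0.22%, 1.29%, 4.66%, 8.34% and 14.1%. Of the 62, 11 passed the filter on low counts only through their Lin+ libraries, as did 6.76% of all genes tested, which favours a call of higher: Trem2, Cd14, Msr1, Marco, Mertk, Siglec1, Aif1, Gpnmb, C1ra, C5ar1 and Il34. Among the 51 others the calls were 2 higher and 1 lower than in S0-Low, 17 and 3 than in S0-Medium, 32 and 5 than in S1, 36 and 5 than in S2, and 34 and 9 than in S3, with median log2 fold changes of 2.22, 3.81, 5.87, 6.24 and 6.49 beside 0.02, 0.02, 0.01, 0.08 and 0.69 over all genes tested. With the replicate block 7 of the 62 were higher than in S0-Low, and with the 6 libraries alone 22.

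**Figure D4:**
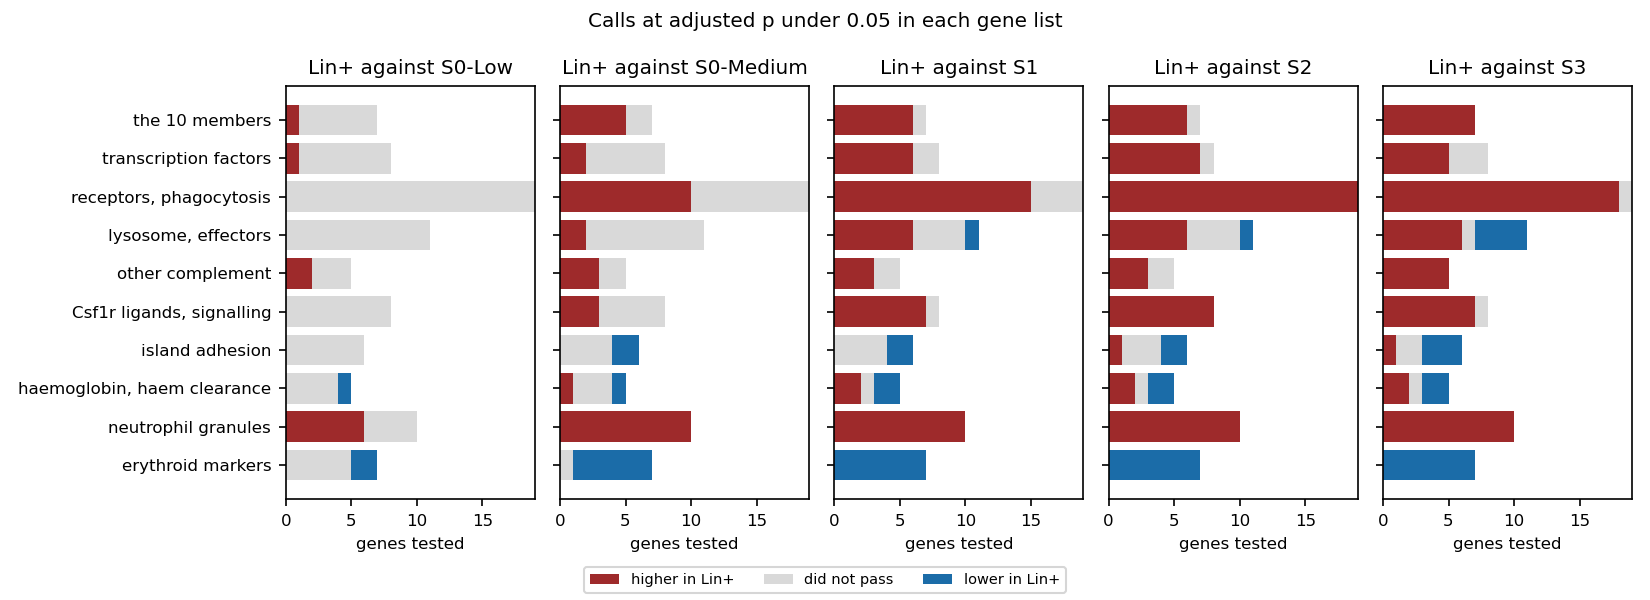
Number of tested genes in each list called higher in Lin+ (red), lower in Lin+ (blue) or neither (grey) at an adjusted p under 0.05, one panel for each Lin- population. Receptors and phagocytosis genes go from 0 of 19 called higher against S0-Low to 19 of 19 against S2, while lysosomal, island adhesion and haem clearance genes are called in both directions.

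Of 19 receptors and phagocytosis genes tested, 0 were higher against S0-Low, 10 against S0-Medium, 15 against S1, 19 against S2 and 18 against S3, and none was lower. At an unadjusted p under 0.05, edgeR had 14 of the 19 higher than in S0-Low, beside 6.89% of all genes tested. Without the 6 that passed the filter only through Lin+ (Trem2 to Siglec1 above), the calls were 0, 8, 11, 13 and 12 of 13. Fcgr3, an Fc receptor for antibody-coated particles, had 4140 to 10896 counts in Lin+ and 496 to 718 in S0-Low (7.51-fold by means, edgeR adjusted p = 0.348). Ccr2, the chemokine receptor of inflammatory monocytes, had 3555 ± 2178 normalized counts in Lin+ and 641 ± 590 in S0-Low, and Clec7a, the beta-glucan receptor dectin-1, had 2086 ± 1523 and 524 ± 595 (SD, n = 3). All 3 were called against each of the other 4 populations.

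Of 8 transcription factors tested, 1 was higher against S0-Low, 2 against S0-Medium, 6 against S1, 7 against S2 and 5 against S3. Cebpb, a factor of myeloid cells, was called against S0-Low (log2 2.36 ± 0.49, edgeR adjusted p = 0.0302) but not against S3 (0.07 ± 0.47, edgeR adjusted p = 0.923), since S3 itself had 9333 ± 2349 normalized counts beside 9769 ± 2457 in Lin+ (SD, n = 3). It was the 1 factor higher in S3 than in S0-Low, where 5 were lower. Spi1, which encodes PU.1, had 7740 ± 1222 normalized counts in Lin+, 2440 ± 696 in S0-Low and 256 ± 197 in S3. Cebpa had 3106 ± 273 in Lin+ and 1835 ± 246 in S0-Low, with none in S3.

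Complement genes outside the C1q chains held 2 of the 3 genes of the 7 lists called higher than in S0-Low, C3 and C5ar1, of which C5ar1 passed the filter only through Lin+. C3, the central complement protein, had 11795, 9619 and 10116 counts in Lin+ and 53, 76 and 28 in S0-Low (log2 7.22 ± 1.12, edgeR adjusted p = 0.00543). C5ar1, a receptor for a fragment of C5, was at 0 in all S0-Low and S3 libraries and at 638 to 703 counts in Lin+, at least 128-fold higher than in S0-Low. C3ar1, the matching receptor for C3, had 1536 to 2502 counts in Lin+ and 0 to 37 in S0-Low (edgeR adjusted p = 0.126). Of the 5 tested, 2 were higher against S0-Low, 3 against S0-Medium, S1 and S2 and 5 against S3, and without C1ra and C5ar1 1, 2, 2, 2 and 3 of 3.

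Genes of Csf1r signalling were higher in Lin+ than in S0-Low for 0 of 8 tested, S0-Medium for 3, S1 for 7, S2 for 8 and S3 for 7. Without Il34, which passed the filter only through Lin+, the calls were 0, 3, 7, 7 and 7 of 7. Against S0-Low 4 of the 8 were higher at an unadjusted edgeR p under 0.05 (6.89% of all genes). The most abundant were Plcg2, Vav1 and Pik3cd, which relay receptor signals in many blood cells. In S0-Low they had 10755, 6256 and 6852 normalized counts beside 17240, 10056 and 8311 in Lin+, which was 1.60, 1.61 and 1.21 times as high, and none of the 3 was called (edgeR adjusted p = 0.839, 0.890 and 0.991).

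Lysosomal genes were called in both directions. Of 11 tested, 6 were higher and 4 lower in Lin+ than in S3, and 6 higher and 1 lower against S1 and S2, with 2 higher against S0-Medium and 0 against S0-Low (8 at an unadjusted edgeR p under 0.05, beside 6.89% of all genes). Without Aif1 and Gpnmb, 4 of 9 were higher against S1, S2 and S3 and 1 against S0-Medium. Lgals3, the lectin galectin-3, had 1452 to 2728 counts in Lin+ and 0 to 67 in S0-Low and S3. The 4 lower than in S3 were Ctsb and Lgmn, lysosomal proteases, Dnase2a, the nuclease that digests expelled erythroblast nuclei, and the phosphatase Acp5. Ctsb had 4405 ± 1475 normalized counts in Lin+ and 35400 ± 5679 in S3 (SD, n = 3; log2 -3.01 ± 0.48, edgeR adjusted p = 9.7e-05), and Dnase2a had 1408 ± 386 and 3599 ± 973 (log2 -1.35 ± 0.33, edgeR adjusted p = 0.00354). Acp5 was also the 1 lower against S1 and S2. Lamp1, a membrane protein of all lysosomes, did not differ from S3 beyond its error (log2 -0.05 ± 0.26). From S0-Low to S3, 5 of the list rose, while Ctss, a protease of antigen-presenting cells, and Pld4 fell to 0 counts.

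Genes of island adhesion included none higher in Lin+ than in S0-Low, S0-Medium or S1, and 1, Itgav, higher than in S2 and S3, of 6 tested, beside 16.3% and 28.2% of all genes (0 were higher than in S0-Low at an unadjusted edgeR p under 0.05 and 2 lower, beside 6.89% and 2.96% of all genes). Icam4, an erythroid adhesion molecule, and Epor, the erythropoietin receptor, were lower in Lin+ than in S0-Medium, S1, S2 and S3, and Itga4 lower than in S3. Itgav, the partner of Icam4 on macrophages, had 2177 ± 481 normalized counts in Lin+ and 23.1 ± 33.9 in S3 (SD, n = 3; log2 6.49 ± 0.93, edgeR adjusted p = 3.59e-05), and fell from S0-Low to S3 while 2 of the list rose. The integrin chains that bind Vcam1 were present on both sides: Itga4 had 20661 ± 6791 in Lin+ and 47080 ± 11252 in S3, and Itgb1 7318 ± 628 and 6627 ± 2427. Maea, which encodes an island attachment protein, had 3871 ± 164 and 2533 ± 1137.

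Haemoglobin and haem clearance genes (5 tested) were called higher in Lin+ for 0, 1, 2, 2 and 2 genes and lower for 1, 1, 2, 2 and 2 genes, from S0-Low to S3. The 0 against S0-Low compares with 2 at an unadjusted edgeR p under 0.05 (6.89% of all genes). Blvrb, a biliverdin reductase, was the 1 gene of the 7 lists lower in Lin+ than in S0-Low (451 against 1922 normalized counts, log2 -2.09 ± 0.46, edgeR adjusted p = 0.0407). Hp, haptoglobin, which Cd163 binds, had 6503, 8205 and 4623 counts in Lin+ and 232, 71 and 0 in S0-Low (edgeR adjusted p = 0.0742). Lrp1, the receptor for haem bound to haemopexin, had 5476 ± 2066 normalized counts in Lin+ and 28.1 ± 27.4 in S3 (SD, n = 3). Slc40a1, the iron exporter ferroportin, went the other way, with 698 ± 219 in Lin+ and 3948 ± 1364 in S3 (log2 -2.50 ± 0.59, edgeR adjusted p = 0.00279).

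The genes whose pattern over the 18 libraries was most like the mean of the members were Igsf6 (Pearson r = 0.987), Slfn2 (0.986), Anxa1 (0.983), Clec12a (0.982), Lrrk2 (0.981), Clec5a (0.981), ENSMUSG00000105504 (0.980) and Ceacam1 (0.979), measured on log2(CPM + 0.5). The points share their libraries and depth, and the measure mostly follows the gap between Lin+ and the rest. Igsf6 had 7134 normalized counts in Lin+, 272 in S0-Low and 51.1 in S0-Medium, and Clec12a 2100, 225 and 34.1. With a pseudocount of 0.1 CPM 5 of the 8 stayed among the top 8, and with 2 CPM 3 did.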

How the data were processed

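Nascent RNA (4sU-seq) was measured in 18 libraries of 6 sorted populations. The authors made stranded libraries with PCR and no molecular identifiers, quantified them with Kallisto 0.43.0 (build GRCm38, per the submitters' processing notes) and deposited whole-number counts per gene, not normalized and not pooled. Kallisto shares reads between near-identical transcripts; its transcript set is not given in the sources used here. Groups and replicate numbers are from the labels.

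Counts were fitted in R 4.3.3 with edgeR 4.0.16: all 18 libraries, population as factor, TMM scaling, filterByExpr (17755 genes), two-sided quasi-likelihood tests, Benjamini-Hochberg adjusted p under 0.05 over all genes. The estimated common coefficient of biological variation came to 0.771. Normalized counts are scaled to the mean effective library (32002844). The scripts were tested on simulated data for Lin+ against S0-Low, with the common variation given to every gene. The fit called 0 of 82 2-fold changes, 0 of 59 4-fold changes and 19 of 59 16-fold changes. Of 15646 unchanged genes it called 0. A difference not called against S0-Low is therefore no sign of equal levels. Python 3.11.15 drew the figures. DESeq2 1.42.0 and other settings were alternatives.

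Replicate numbers were taken to pair libraries where all 3 same-numbered pairs deviated together with r over 0.1: Lin+ with S0-Low (0.192 to 0.303), S1 (0.259 to 0.309) and S2 (0.2 to 0.281). The main fit nevertheless held no replicate block, so its p-values leave this pairing out. The fit with the block was an alternative. Members and lists were chosen with earlier results of these data known. Every member is named; from each of the 7 macrophage lists the 3 highest in Lin+ and those called against their list's direction are named, with some marker genes of other cells and the 8 genes most alike to the members.
Icam4, Epor and Blvrb were named after their values were seen, to complete small counts.
List counts without genes that passed the filter only through Lin+, and fold limits and S0-Low shares with 1 library left out, were alternatives chosen after seeing the data.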

Additional observations from a re-analysis of the deposited data

How the results depend on the processing

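In all 534 fitted values of Lin+ against a Lin- population, over settings, the 7 members tested in the report were higher in Lin+. The settings reuse the same libraries, in which every Lin+ library lay above every Lin- library for these members. Their shared direction is therefore no further support. Cd163, tested under some settings only, was lower in Lin+ than in S0-Low with DESeq2 (log2 -2.58) and without a filter (-2.43, edgeR adjusted p = 0.864). Members called higher than in S0-Low (1) numbered 4 with DESeq2, 6 without a filter, 2 with the replicate block, 6 with the 6 compared libraries alone and 0 to 1 with a library left out. With at least 10 counts required in every compared library, which removes members near 0 by construction, the calls were 2 for S0-Medium and 0 for S1, S2, S3 and S3 against S0-Low. Leaving out a library gave 2 to 5 for S0-Medium. Genes of the 7 lists higher than in S0-Low (3) numbered 15, 13, 7 and 22 under DESeq2, no filter, replicate block and 6 libraries, and 1 to 2 with a library left out; against S3 (44) there were 4 under the strict filter. Other alternatives kept each count of members within 1.5 times.

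All genes called against S0-Low (127) were 665 with DESeq2, 393 without filter, 342 with the replicate block, 57 under the strict filter, 573 with 6 libraries and 42 to 69 with a library left out; against S0-Medium (698) 1677, 1107, 1384 and 2032 (6 libraries), and 240 to 655; against S1 (2763) 1380 (strict) and 5004 (6 libraries), and 1472 to 1915; against S2 (4376) 1647 (strict) and 2895 to 3399; against S3 (7501) 3429 (strict); S3 against S0-Low (6715) 3307 (strict) and 3834 (6 libraries). The causes were not tested. Library totals moved the median of Lin+ against S3 from 0.69 to 1.47 and the share of lower calls from 33.3% to 15.8%; for S2 the share went from 33.8% to 22.8% (22.2% with RLE factors), and for S3 against S0-Low from 64.5% to 85.0%. Member differences against S3 exceeded those medians under each scaling. Numbers did not pair libraries for S0-Medium, S3 and S3 against S0-Low by the rule used; the replicate block gave 6 and 7 members higher than in S0-Medium and S3. Groups of 3 were not tested for single outlying values.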
